A study of Saccharomyces cerevisiae with 15 samples.

Results

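The comparison described here is the effect of rapamycin on where the transcriptional coactivator Ifh1 sits on the chromatin of budding yeast, Saccharomyces cerevisiae. Its members are the 7 Ifh1 arrays of a set of 15, taken by their titles: 3 from rapamycin-treated cells and 4 from untreated cells. Each array set a strain with a myc-tagged protein against its untagged W303 parent, the chromatin of both having been precipitated with anti-myc antibody. The Ifh1 strain was W303+IFH1-13myc-TRP1MX6, and the Fhl1 strain, used here only for contrast, was W303+FHL1-13myc-HIS3MX6. All cultures were in log phase in YPD at 30 °C, and the treated ones received rapamycin at 200 ng/mL. No source used here gives the length of the treatment or says whether the untagged cells on the rapamycin arrays were treated too. The Fhl1 arrays were 5 from rapamycin-treated and 3 from untreated cells. The arrays may share an untagged preparation, which would leave the spread between such preparations out of every test.

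Ifh1 is recruited to promoters of genes for cytosolic ribosomal proteins (RP genes) by the forkhead-type protein Fhl1, and the genes are transcribed strongly in growing cells. Rapamycin inhibits the TOR kinase complex, which lowers RP gene transcription, and the corepressor Crf1 can compete with Ifh1 for Fhl1 when TOR is inactive in some strains. Rap1 is a DNA-binding protein of most RP promoters, and it also binds promoters of glycolytic and translation factor genes.

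The arrays carried 6803 spotted probes, most of them intergenic regions. A probe belongs to a gene when the 5′ end of that gene faces it, and a probe that 2 divergent genes face carries both names (RPL42B/CHS7, for example). In all, 131 probes faced the 5′ end of 132 of the 137 RP genes. Of these, 77 faced genes of the large subunit (RPL, and RPP for its stalk) and 58 faced genes of the small subunit (RPS), with 4 probes in both. Another 122 probes flanked RP genes at their 3′ ends alone, and 6672 probes faced no RP gene.

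Values are log2 ratios after each array was centred on its median. Each condition had 1 dye swap per the labels, which do not say on which array, so the direction of a ratio was not known. On the untreated Ifh1 arrays the RPL probes had a clear median shift, and each of those arrays was turned so that this shift is positive. This turning inverted replicates 1 and 3, so the untreated arrays fell 2 and 2 into both orientations where the labels speak of 1 swap. The turned sign of RPL probes is therefore set by construction and is no result. On the rapamycin arrays the shift was too small to set a direction, and their values are given as deposited. The size of a value, meaning its absolute value on the log2 scale, needs no direction and carries the main comparison. A size cannot fall below 0, so probes without enrichment also have a size, and probes that face no RP gene give its level.

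The arrays of the 2 groups had a like spread over all probes. The median size of a probe was 0.516, 0.349 and 0.289 on rapamycin replicates 1 to 3, against 0.329, 0.475, 0.351 and 0.425 on untreated replicates 1 to 4. The group means were 0.385 with rapamycin and 0.395 without, and an exact two-sided permutation test of the difference of -0.010 gave p = 0.971, where the smallest p that 35 splits allow is 0.0571. The share of probes with a size over 1 was 21.6%, 10.5% and 5.14% with rapamycin, against 8.25%, 19%, 10.1% and 16% without. The deposited medians lay between -0.86 and 1.31 with rapamycin and between -0.88 and 1.74 without. Values were missing at 1 probe of untreated replicate 1 and 8 probes of untreated replicate 4, and a probe's fit dropped the array where it had none; no RP probe was affected.

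RP promoters, which stood far from the array median on all 4 untreated Ifh1 arrays, lay at the array median on all 3 rapamycin arrays. As deposited, the median of the 131 RP probes was 0.03, -0.01 and -0.10 on rapamycin replicates 1 to 3, against -0.94, 0.88, -0.86 and 0.81 on untreated replicates 1 to 4. In size the means were 0.05 and 0.87, a difference of -0.82, and the 2 groups did not overlap. As ratios, the shifts were 1.02-, 1.01- and 1.07-fold with rapamycin, against 1.92-, 1.84-, 1.82- and 1.75-fold without. These are descriptions of the 7 arrays, and no test was made of a median over the RP probes.

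Both ribosomal subunits had this difference. The size of the median shift of the 77 large-subunit probes was 0.03, 0.06 and 0.06 with rapamycin, against 1.12, 0.96, 0.86 and 0.89 without. For the 58 small-subunit probes it was 0.09, 0.01 and 0.17 with rapamycin, against 0.80, 0.83, 0.91 and 0.86 without. On the 3′ side of RP genes the shift was small in both groups, at 0.06, 0.02 and 0.01 with rapamycin against 0.17, 0.09, 0.07 and 0.10 without.

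**Figure D1:**
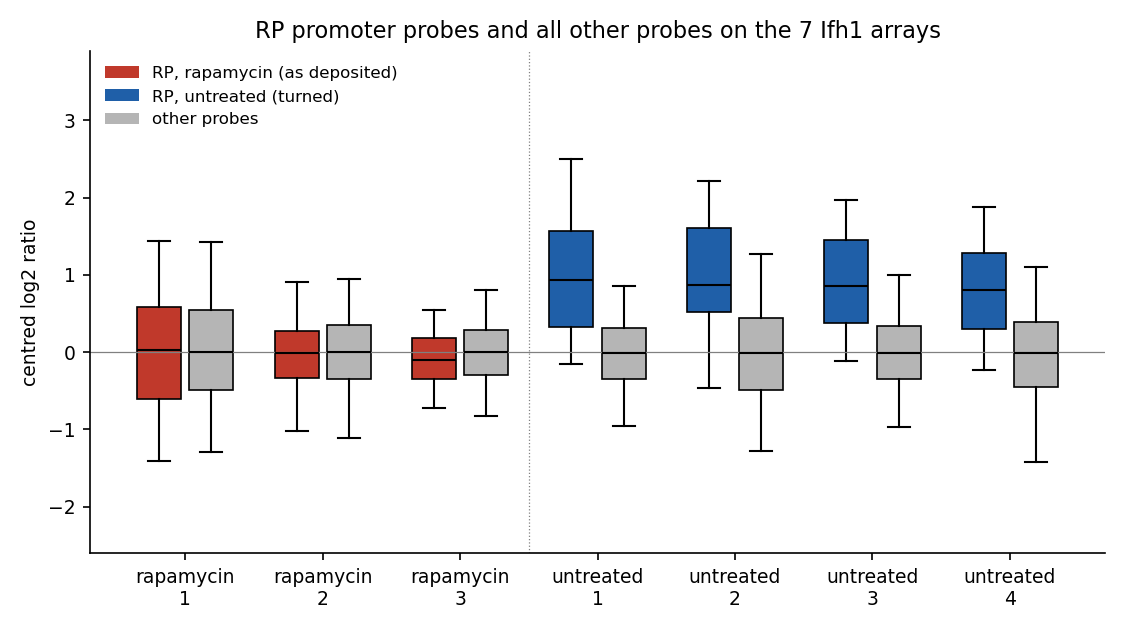
Centred log2 ratios (vertical axis) of the 131 RP promoter probes (coloured, left box of each pair) and of the 6672 probes that face no RP gene (grey) on each Ifh1 array, with rapamycin arrays as deposited and untreated arrays turned. Boxes span the quartiles with the median as a line, and whiskers run from the 5th to the 95th percentile; the RP medians are between -0.10 and 0.03 on the rapamycin arrays and between 0.81 and 0.94 on the untreated arrays.

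Ranks within an array gave the same picture without using the height of the values. The area under the curve that ranks RP probes against the other probes is 0.5 where RP probes are spread evenly through an array. Its distance from 0.5 was 0.003, 0.008 and 0.058 with rapamycin, against 0.338, 0.304, 0.340 and 0.296 without. In the 68 probes of an array's 1% tail that held more RP probes, there were 2, 2 and 1 RP probes with rapamycin, against 29, 16, 27 and 7 without. In the tail of 5%, with 340 probes, RP probes numbered 10, 6 and 4 with rapamycin, against 67, 46, 54 and 39 without. As shares of that tail these were 2.94%, 1.76% and 1.18%, against 19.7%, 13.5%, 15.9% and 11.5%. Of all 6803 probes, 131 faced RP genes, and taking the tail with more RP probes raises every count. The untreated arrays thus differed among themselves in how far RP promoters filled the extreme tail, and untreated replicate 4 had the fewest.

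**Figure D2:**
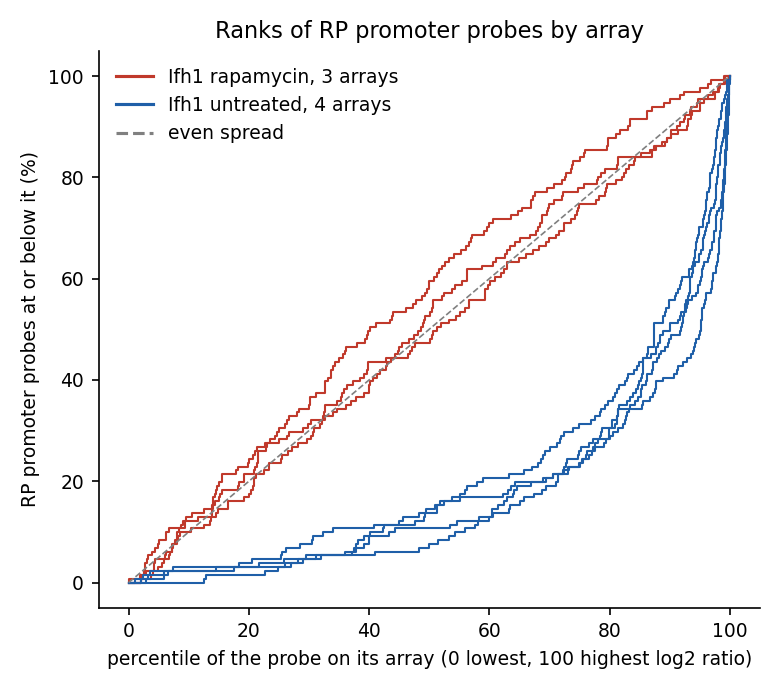
Share of the 131 RP promoter probes (vertical axis, %) found at or below each percentile of all probes on an array (horizontal axis), 1 line per Ifh1 array, with the untreated arrays turned. The 3 rapamycin lines run along the dashed diagonal of an even spread, and the 4 untreated lines lie below it because most RP probes are near the top of the ranking.

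The order of RP promoters among themselves was also compared. The profile of an untreated array over the 131 RP probes had a correlation with the mean of the other untreated arrays of 0.50, 0.33, 0.46 and 0.47 in absolute value. For rapamycin replicates 1 to 3 the correlation with the mean of the untreated arrays was 0.02, 0.09 and 0.09. Probes on 1 array share its hybridisation, so these correlations are descriptions. RP probes varied on the arrays of both groups, with an SD of 0.911, 0.598 and 0.416 on the rapamycin arrays and 0.835, 0.882, 0.705 and 0.853 on the untreated arrays.

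Turned values lay above 0 on all 4 untreated arrays for 91 of the 131 RP probes (69.5%), where 7.72% of all probes did so. The share for large-subunit probes is in part set by the turning. On the 3 rapamycin arrays, RP probes lay on 1 side of the median about as often as all probes did, whatever orientation the arrays were given. With all arrays as deposited, 28 RP probes did so (21.4%), beside 22.8% of all probes. Under the 3 other distinct choices of orientation the numbers were 34, 28 and 39 RP probes, from 21.4% to 29.8%, beside 28.4%, 22.1% and 26.2% of all probes.

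Probe by probe, no change in size passed the test. In limma's fit of 4 group means to all 15 arrays, 0 of 6803 probes (0%) had a Benjamini-Hochberg adjusted p under 0.05, and the lowest adjusted p was 0.171. At an unadjusted p under 0.05, 307 probes were found (4.51%), of which 158 were lower with rapamycin (2.32%) and 149 higher (2.19%). Among the 131 RP probes, 32 were lower (24.4%) and 0 higher by that unadjusted threshold, with 22 of the 77 RPL probes and 11 of the 58 RPS probes. The 3 sizes with rapamycin lay below all 4 untreated sizes for 225 of all probes (3.31%) and for 35 of the 131 RP probes (26.7%), 25 of them large-subunit and 10 small-subunit. The opposite order was found for 158 of all probes (2.32%) and 0 RP probes.

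The median difference in mean size was -0.46 over the RP probes, with -0.56 at RPL probes and -0.39 at RPS probes. Over all probes it was -0.02. A mean size over 1 was found at 5 RP probes with rapamycin and at 64 without, beside 382 and 446 of all probes. The difference was below 0 at 112 RP probes (85.5%) and above 0 at 19, beside 3605 of all 6803 probes below 0 (53.0%).

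**Figure D3:**
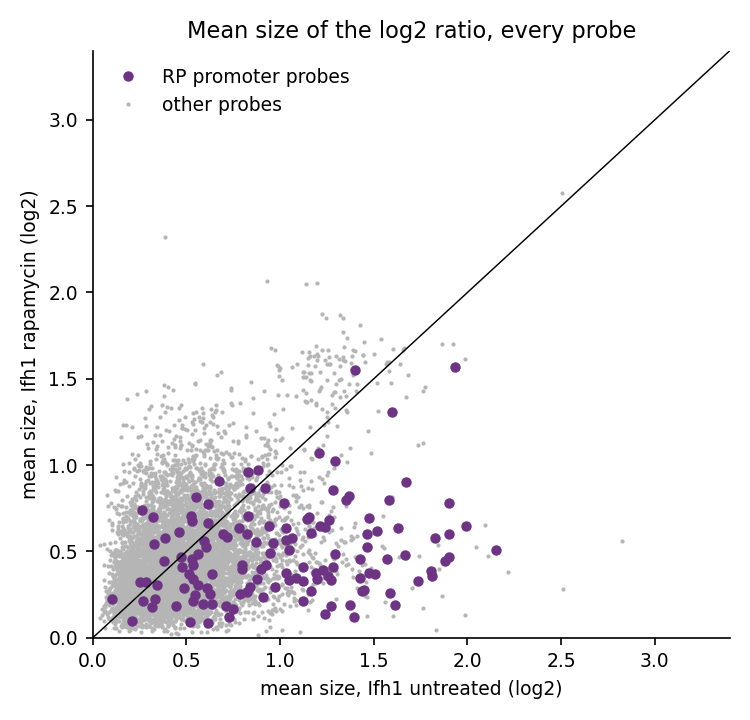
Mean size of the centred log2 ratio of every probe on the 3 Ifh1 rapamycin arrays (vertical axis) against that on the 4 Ifh1 untreated arrays (horizontal axis), with RP promoter probes in purple and the line of equal size in black. RP probes reach mean sizes of 2.15 without rapamycin, while 5 of them have a mean size over 1 with rapamycin.

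The probe RPL42B/CHS7, upstream of a gene for large-subunit protein L42 and of CHS7, which is needed for export of a chitin synthase, had the largest difference among RP probes. Its centred values were 0.68, -0.23 and -0.62 with rapamycin, against turned values of 2.51, 2.19, 1.82 and 2.10 without. All 4 untreated arrays were thus high, and the sizes of the 2 groups did not overlap. The mean size was 0.51 ± 0.25 with rapamycin (SD, n = 3) and 2.15 ± 0.28 without (SD, n = 4), a difference of -1.64 with a standard error of 0.28 and a limma adjusted p of 0.171. Its paralogue's probe RIA1/RPL42A had sizes without overlap too, with means of 0.40 and 0.80.

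RPL16A, RPL33B and RPL20B, further large-subunit genes, had low values on every rapamycin array. RPL16A had -0.39, -0.14 and 0.25 with rapamycin, against 1.73, 1.41, 1.76 and 1.44 without, and its difference in size was -1.32 with a standard error of 0.25 and a limma adjusted p of 0.323. RPL33B/IRC13 had -0.19, 0.11 and -0.28 with rapamycin, against 1.59, 1.37, 1.62 and 1.87 without. RPL20B had -0.49, -0.66 and -0.01 with rapamycin, against 2.07, 1.84, 1.95 and 1.37 without. At these 3 probes the 4 untreated arrays lay close together, and no size with rapamycin reached them.

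At RPL35A, ATG27/RPL17B and RPL2A the untreated arrays were further apart. RPL35A had -0.80, -0.14 and -0.39 with rapamycin, against 1.24, 3.60, 0.87 and 1.82 without, so that untreated replicate 2 was well above the others. ATG27/RPL17B had 0.01, 0.18 and 0.18 with rapamycin, against 1.72, 2.20, 1.04 and 0.63 without. RPL2A had 0.07, -0.85 and 0.81 with rapamycin, against 2.60, 1.25, 1.85 and 1.61 without. The sizes did not overlap at any of the 3, while at RXT3/RPL31A they did: rapamycin replicate 1 read 1.70, and replicates 2 and 3 read 0.06 and -0.18, against 1.11, 3.03, 2.25 and 1.58 without.

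The small-subunit probes with the largest differences were those of RPS19B, RPS27B, RPS21B and RPS24B. RPS19B had -0.26, -0.45 and 0.35 with rapamycin, against 2.05, 2.53, 1.29 and 1.38 without. RPS27B had 0.41, 0.81 and -0.19 with rapamycin, against 1.45, 2.10, 2.78 and 1.28 without, with a limma adjusted p of 0.587. RPS21B/LCB3 had -0.15, 0.30 and -0.53 with rapamycin, against 2.57, 1.95, 0.92 and 1.50 without. RPS24B had 1 larger value among its rapamycin arrays, -1.32 on replicate 1, yet stayed below its untreated values of 1.68, 2.50, 1.55 and 1.88. For the 12 RP probes with the largest difference the values ran from -1.64 to -1.25. Their sizes were without overlap at 11 of the 12, beside 26.7% of RP probes and 3.31% of all probes. These 12 were picked by that difference, so the count of 11 is no further result.

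**Figure D4:**
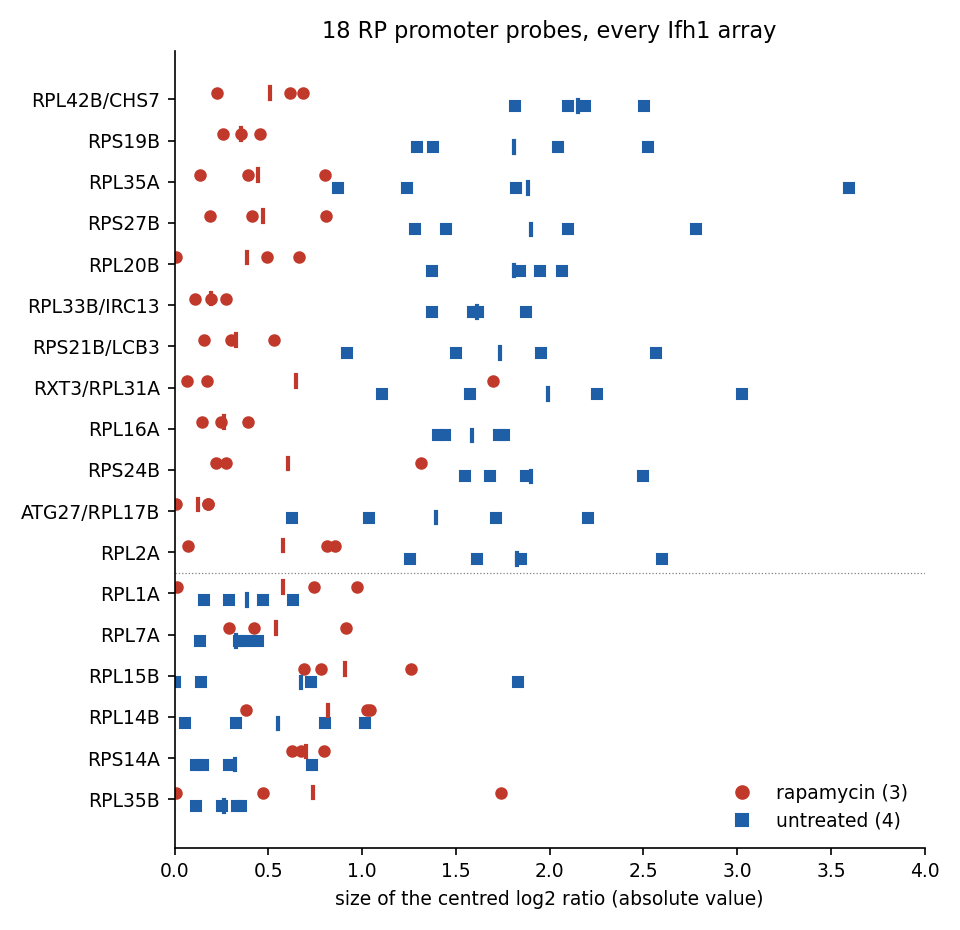
Size of the centred log2 ratio (horizontal axis) on every Ifh1 array for the 12 RP promoter probes with the largest difference (above the dotted line) and the 6 with the smallest fall or a rise (below it). Red circles are the 3 rapamycin arrays, blue squares the 4 untreated arrays, and short bars the means; above the line the circles lie left of the squares except for 1 circle of RXT3/RPL31A.

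Several of these genes have a paralogue whose promoter was weaker on the untreated arrays and differed less. The genes were picked by a large difference, so a paralogue with a smaller one is in part set by that choice. RPS19A had a mean size of 0.30 with rapamycin and 0.56 without, RPS24A 0.09 and 0.52, and RPS21A 0.59 and 0.72. At RPL20A the means were 0.87 with rapamycin and 0.84 without. For RPL2, RPL16 and RPL17 both paralogues had sizes without overlap between the groups, with differences of -1.25 and -1.11 at RPL2A and RPL2B, -1.32 and -1.10 at RPL16A and RPL16B, and -1.17 and -1.27 at RPL17A and RPL17B.

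At the other end, 6 RP probes had the highest differences, all above 0, and their mean untreated sizes were below 1. RPL35B had sizes of 1.74, 0.01 and 0.47 with rapamycin, against 0.33, 0.36, 0.25 and 0.11 without, a difference of 0.47, with rapamycin replicate 1 far above every other value. RPS14A had 0.80, 0.68 and 0.63 with rapamycin, against 0.73, 0.29, 0.11 and 0.15 without. RPL14B, RPL15B, RPL7A and RPL1A had differences between 0.19 and 0.27. Sizes overlapped between the groups at all 6, and the mean untreated size was between 0.26 and 0.67. On untreated replicate 4, RPL15B and RPL14B reached sizes of 1.83 and 1.02.

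RPL4A, a large-subunit gene, had a large size in both groups without a common direction. Its values were 1.28, -1.86 and 1.51 with rapamycin, against -1.16, 1.04, 0.55 and -2.84 without. The untreated values lay on both sides of 0, and the sizes of the groups overlapped.

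With direction taken into account, again no probe passed with the rapamycin arrays as deposited: limma called 0 of 6803 probes (0%), with a lowest adjusted p of 0.148. At an unadjusted p under 0.05 there were 372 (5.47%), of which 230 were lower (3.38%) and 142 higher (2.09%). The 3 unknown orientations of the rapamycin arrays give 8 combinations. Over these, 2 probes were called in any (0.0294%), and 0 probes (0%) in all 8. RPL42B/CHS7 was called in 2 combinations. Over all 8, its change in the log2 ratio ran from -2.66 to -1.64, and its limma adjusted p from 0.004 to 0.221. The untreated sign of this RPL probe was set by the turning, so its signed calls lend no support beyond the comparison of sizes. The rapamycin arrays taken alone had 0 probes (0%) with a mean that differed from 0 by limma's adjusted p, and 259 (3.81%) at an unadjusted p under 0.05, of which 136 lay below 0 (2%) and 123 above (1.81%).

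The strength of Fhl1 at a promoter was a measure taken from other arrays. RP probes were split into terciles of 44, 44 and 43 probes by their mean size on the untreated Fhl1 arrays. In the highest tercile the median size was 0.43 ± 0.30 on the Ifh1 rapamycin arrays (SD, n = 3) and 1.45 ± 0.14 on the untreated Ifh1 arrays (SD, n = 4). In the middle tercile it was 0.39 ± 0.15 with rapamycin and 0.84 ± 0.09 without. In the lowest tercile it was 0.41 ± 0.14 with rapamycin and 0.45 ± 0.15 without. Ifh1 at RP promoters was thus graded with Fhl1 in untreated cells. With rapamycin the tercile means were about the same, close to the 0.38 ± 0.12 of probes that face no RP gene. Single rapamycin arrays ran from 0.24 to 0.77 in the highest tercile, beside 0.29 to 0.51 at probes that face no RP gene. Over all RP probes the median size was 0.607, 0.301 and 0.267 on rapamycin replicates 1 to 3. Over all probes it was 0.516, 0.349 and 0.289, so on replicate 1 RP probes were the larger. Sizes without overlap, lower with rapamycin, were found at 23 probes of the highest tercile, 11 of the middle and 1 of the lowest, beside 3.31% of all probes. The 1 of 44 in the lowest tercile is near that share.

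**Figure D5:**
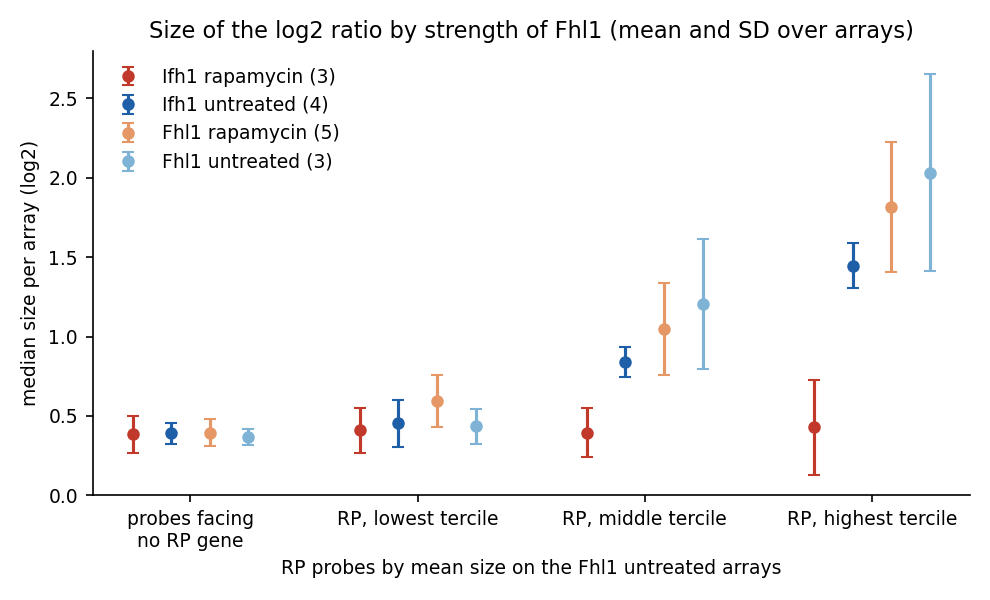
Median size of the centred log2 ratio per array (vertical axis), as mean and SD over the arrays of each group, for probes that face no RP gene and for RP probes in terciles of their size on the untreated Fhl1 arrays. The mean for Ifh1 with rapamycin stays between 0.38 and 0.43 in every class, with the widest SD in the highest tercile. The mean for untreated Ifh1 reaches 1.45 in the highest tercile, and the Fhl1 untreated points there are set by the split itself.

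Fhl1 itself kept a shift at RP promoters on the rapamycin arrays. Its RP median had a size of 1.48, 1.25, 0.91, 1.09 and 0.65 on Fhl1 rapamycin replicates 1 to 5, against 1.54, 1.30 and 0.75 on Fhl1 untreated replicates 1 to 3, and these groups overlapped. The difference was -0.12, beside -0.82 for Ifh1. For Fhl1, limma called 0 probes (0%) in size, with 243 (3.57%) at an unadjusted p under 0.05. Fhl1 sizes were lower with rapamycin without overlap at 72 of all probes (1.06%) and 4 of the 131 RP probes (3.05%), and higher at 123 of all probes (1.81%). The chance of no overlap depends on the number of arrays, so these counts are not on the scale of those for Ifh1. In the highest tercile of RP probes the median size for Fhl1 was 1.82 ± 0.41 with rapamycin (SD, n = 5) and 2.03 ± 0.62 without (SD, n = 3). In the lowest tercile it was 0.59 ± 0.16 with rapamycin and 0.43 ± 0.11 without. The untreated Fhl1 sizes made the terciles, which raises the untreated value in the highest and lowers it in the lowest. These tercile values therefore do not measure a rapamycin effect on Fhl1.

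The test of the difference between the 2 proteins, the change in size for Ifh1 minus that for Fhl1, called 0 of 6803 probes (0%) by limma's adjusted p, whose lowest value was 0.969. At an unadjusted p under 0.05 there were 248 probes (3.65%), of which 121 were lower for Ifh1 (1.78%) and 127 higher (1.87%). Of the 131 RP probes, 7 were lower and 0 higher. The median of this quantity was -0.42 over RP probes and -0.05 over all probes. At RPL16A it was -1.23 with a standard error of 0.35, and at RPL42B/CHS7 it was -1.34 with a standard error of 0.39. It was smaller at RPS27B, at -0.57 with a standard error of 0.48, and at RPS21B/LCB3, at -0.49 with a standard error of 0.44. The difference in mean size for Fhl1 was -0.87 at RPS27B and -0.92 at RPS21B/LCB3, with standard errors of 0.33 and 0.30. The limma adjusted p was 0.985 at both. RPL16A had a mean Fhl1 size of 2.20 ± 0.48 with rapamycin (SD, n = 5) and 2.29 ± 0.27 without (SD, n = 3).

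The arrays were divided into 3 clusters, a number that was set and not found, by the values of probes that face no RP gene. The clusters cut across treatment and protein. No source used here says what the clusters stand for. As deposited, RP medians in cluster 1 were 1.54, 1.25, 1.09 and 0.88, beside 0.03 on Ifh1 rapamycin replicate 1. In clusters 2 and 3 most ran from -1.48 to -0.65. Outside that range were 0.81 on untreated Ifh1 replicate 4, and -0.01 and -0.10 on Ifh1 rapamycin replicates 2 and 3. The clusters thus largely followed the sign of the RP median, and whether they reflect dye orientation was not tested. In cluster 1, with 1 Ifh1 rapamycin array and 1 untreated one, the difference in the size of the RP shift was -0.85. In cluster 2, with 2 arrays of each group, it was -0.78, beside -0.82 over all 7 arrays. These values rest on 1 or 2 arrays per group, and the RP shift was not tested within clusters. Cluster 3 held 1 untreated Ifh1 array and no rapamycin one.

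Among the genes of the regulators themselves, FHL1, IFH1 and RAP1 had small values at their own promoters. FHL1 had -0.20, 0.25 and 0.08 with rapamycin, against 0.29, 0.33, 0.13 and 0.16 without. IFH1/UCC1 had a mean size of 0.26 with rapamycin and 0.47 without, and RAP1 0.25 and 0.22. CRF1 stood off the median in both groups, with 1.37, -1.63 and 1.27 with rapamycin and -0.78, 0.84, 0.85 and -2.70 without, and its turned values lay on both sides of 0. HMO1, a high-mobility-group protein of RP promoters, had mean sizes of 0.25 with rapamycin and 0.54 without. The 2 probes of SFP1, a TOR-regulated activator, differed in mean size by 0.10 and 0.06. The second of them had -1.05, -0.51 and 0.13 with rapamycin, against 0.09, 0.67, 0.57 and 0.70 without, and its sizes overlapped. Among 34 probes of such regulators that face no RP gene, 1 was lower and 0 higher at an unadjusted p under 0.05, near the 2.32% and 2.19% of all probes.

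Promoters of translation factor and glycolytic genes, many of them bound by Rap1, were examined next. The probe TKL2/TEF2, upstream of a gene for elongation factor EF-1α, had -1.28, -0.57 and 0.02 with rapamycin, against 1.12, 0.69, 1.44 and 0.85 without. TEF1, which encodes the same protein, had 0.79, 0.14 and -0.40 with rapamycin, against 0.36, 1.28, 0.48 and 1.47 without. The untreated values of both were above 0 on every array, and sizes overlapped between the groups. TDH3, a glyceraldehyde-3-phosphate dehydrogenase gene, had 0.98, -0.21 and -0.43 with rapamycin, against 0.79, 1.31, 0.07 and 1.08 without.

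Of 29 probes of translation factor genes, 0 had an unadjusted p under 0.05, with a median difference in size of -0.11. Of 26 glycolytic probes, 1 was lower and 0 higher at an unadjusted p under 0.05, with a median difference of 0.03. Such small counts do not set these groups apart from the 2.32% lower and 2.19% higher among all probes.

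Genes that respond to TOR by other routes had counts that are also to be read beside the 2.32% lower and 2.19% higher among all probes. Of 63 probes of ribosome biogenesis genes, whose products assemble the ribosome, 1 was lower and 1 higher at an unadjusted p under 0.05, and their median difference was -0.003. Among 31 probes of RNA polymerase I and III genes the counts were 0 lower and 1 higher. For 32 probes of nitrogen catabolite genes, which are induced when TOR is inhibited, they were 0 lower and 2 higher, and YGR018C/UGA1 had the largest difference, 0.92. YNL143C/MEP2, upstream of an ammonium permease gene, had mean sizes of 0.16 with rapamycin and 0.39 without. For 39 probes of stress-response genes the counts were 0 lower and 2 higher, with mean sizes at ALD3, an aldehyde dehydrogenase gene, of 1.32 with rapamycin and 0.30 without.

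Only 3 probes were in the top 5% of sizes on all 3 rapamycin arrays (0.0441%), and none of them faced an RP gene. These were iYLR096W, iYJL088W and PLC1, and as deposited their values lay on both sides of the median. The probe iYJL088W had 2.40, -2.84 and -1.72 with rapamycin, against -0.12, -0.65, -0.76 and 0.00 without, and a limma adjusted p of 0.37. PLC1, a phospholipase C gene, had 2.15, -2.22 and 1.83 with rapamycin, against -0.13, -0.79, 0.76 and -2.05 without. On all 4 untreated arrays 4 probes were in the top 5% (0.0588%), 3 of them RP probes and the other again iYLR096W.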

How the data were processed

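Per the labels' protocols, precipitated DNA was amplified by ligation-mediated PCR, labelled with Cy3 or Cy5, hybridised with the wild-type reference and scanned with GenePix. The authors deposited 1 log2 ratio per probe and array; the base was read from the values, since 2 to the power of each was a ratio of 3 decimals for 100% (tolerance 0.002). The background correction and normalisation used were not given in the sources.

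Groups and replicate numbers came from titles, and the labels call the replicates biological. Array medians were subtracted, without a loess step. limma 3.58.1 (R 4.3.3; lmFit, eBayes) fitted 4 group means to all 15 arrays, first on sizes, then on signed values, two-sided with Benjamini-Hochberg adjustment over 6803 probes. Array summaries used an exact permutation test (scipy 1.17.1). The fits were tested on simulated data with independent normal noise, where only the estimate of the signed fit had a set limit to pass. The number of arrays limits the precision, and depth has no counterpart here.

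The side of a probe was read from probe names: a probe existed for 58 of 67 genes flanked by a gap solely at higher coordinates, against 8 of 77 flanked by one solely at lower coordinates. NCBI's R64 table matched 5327 of 5574 named reading frames; 194 probes were placed by number, 4 of them RP probes. Array coordinates are not used here, and no genome sequence was used.

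Members and lists were chosen with earlier results of these data known. Named probes are the 12 RP probes with the largest fall in mean size and the 6 with the smallest fall or a rise, other probes in the top 5% of sizes on all arrays of a group, 16 set genes (GAP1 and DAL80 had no facing probe), and each other list's extremes. RPL4A, the paralogues and the terciles by Fhl1 were singled out after their values were seen. Alternatives were centring, scaling, robust eBayes, probe filters, sign patterns, blocks and leaving out each array. The result of 1 probe is not reported here.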

Additional observations from a re-analysis of the deposited data

Results flagged for a closer look

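Among 64 groups of 4 untreated values that were looked at, 6 (9.38%) had 1 array standing off the other 3 beyond Dixon's limit. Chance flags about 1 in 20 groups of normally distributed values that were not chosen by their values. The 6 flagged groups are of sizes, which are absolute values, so that rate is only a rough guide. Several of these probes were named because their values were extreme, among them SSB2 and RPD3 through untreated replicate 4 itself, so that rate does not apply to them. In size, CRF1 read 2.70 on untreated replicate 4, against 0.776 to 0.854 on the others. YNL143C/MEP2 read 0.985 on untreated replicate 3, against 0.144 to 0.236. HHO1/NAN1, upstream of the linker histone gene, read 0.490 on untreated replicate 2, against 0.270 to 0.302. Its turned values were 0.30, -0.49, -0.30 and 0.27, so with the sign kept replicate 2 lay nearer to another array. RPD3, a histone deacetylase gene, read 3.89 on untreated replicate 4, against 0.346 to 0.781. SSB2, a ribosome-associated chaperone gene, read 6.49 on untreated replicate 4, against 0.110 to 0.392. ALD3 read 0.813 on untreated replicate 3, against 0.0873 to 0.164. None of the 6 is an RP probe, and 3 of them are on untreated replicate 4.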

How the results depend on the processing

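In size, 0 probes were called under all 16 alternatives, with 137 to 402 at an unadjusted p under 0.05. The signed comparison had 1 call under the sign patterns -++, --+ and +-- (the signs of rapamycin replicates 1 to 3) and 0 to 1 when each array was left out, the 1 without rapamycin replicate 1. The same-numbered arrays deviated with correlations of 0.03, -0.07 and 0.04 in size, within the -0.13 to 0.13 of arrays with unlike numbers. In signed values, with rapamycin arrays as deposited, they were -0.12, -0.16 and 0.20. So few values cannot exclude that the numbers pair the samples. With the replicate number as a block 0 probes were called in size (305 at an unadjusted p under 0.05). In the signed fit 0 were called (391), and the block changed no other call. The difference in median size of all probes, -0.010, had no settled sign: leaving out each array gave -0.0757 to 0.038. The RP shift difference of -0.82 was -0.80 to -0.85 when each array was left out, -2.12 in units of each array's median size, -0.30 as the rank distance, -0.91 at RPL and -0.76 at RPS probes. In the 1% tail the mean count of RP probes differed by -18.1 (-15 to -22.3 with each array left out), and in the 5% tail by -44.8. The 12 RP probes with the largest difference stayed below 0 under every setting, though probes picked by that difference could hardly change sign. Of 60 named probes, 18 changed sign under some setting. Few arrays and the unknown dye orientation limit what single probes can show.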

Other observations

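Further gene groups were looked at for Ifh1 on chromatin with and without rapamycin, and, as over all probes, 0 were called. Of 292 probes at tRNA genes, which RNA polymerase III transcribes, 7 were lower and 4 higher with rapamycin at an unadjusted p under 0.05, beside 2.32% and 2.19% of all probes, and the median difference in size was -0.03. Of 109 probes of snoRNA genes, whose products guide modification of ribosomal RNA, 3 were lower and 1 higher. Of 59 probes of mitochondrial RP genes, which have names like those of the cytosolic RP genes but encode another ribosome, 3 were lower and 0 higher, with a median difference of -0.04 beside -0.46 at cytosolic RP genes. Of 47 probes of amino acid biosynthesis genes 1 was lower and 2 higher, and of 7 histone probes 0 were either.

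Single probes of these groups had larger values. VHS2/SNR68 had -1.02, 0.07 and 0.16 with rapamycin, against 1.70, 1.92, -1.22 and 0.57 without. LEU4/MET4, between genes of leucine and methionine metabolism, had 0.07, 0.32 and -0.04 with rapamycin, against -0.90, 0.92, 1.22 and 0.75 without, and its sizes did not overlap. RSM28, a mitochondrial small-subunit gene, had -0.90, -0.27 and 0.20 with rapamycin, against 1.03, -1.82, -1.76 and -0.80 without. At all 3 probes the untreated values lay on both sides of 0.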
